A study of Homo sapiens with 12 samples.

Results

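The genes described here are 10 members of the insulin and insulin-like growth factor (IGF) system: the receptors IGF1R, INSR and IGF2R, the receptor substrates IRS1 and IRS2, and the IGF-binding proteins IGFBP1, IGFBP2, IGFBP3, IGFBP4 and IGFBP6. They were selected by gene symbol from the deposited expression tables, in which all 10 were found among 27249 genes with Ensembl identifiers. RNA was sequenced from 2 human liver cancer cell lines labelled as hepatocellular carcinoma (HCC) cells, Huh7 and HepG2, with wild-type genotype given for all samples. Each line was sampled as untreated parental and as sorafenib-resistant cells, which gives 4 groups of 3 samples. Sorafenib is an inhibitor of RAF and receptor tyrosine kinases. Resistant cells were raised over 8 months, with a first dose of 10 μmol and stepwise higher doses applied to the survivors. Each resistant line is thus the outcome of its own selection, and the labels do not say whether it is clonal, whether the drug was present at harvest or whether the 3 samples came from separate cultures. P-values therefore measure the spread between these samples, which may be technical.

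Insulin and the IGFs act on cells through INSR and IGF1R, related receptor tyrosine kinases that recruit the adaptor proteins IRS1 and IRS2 and so engage phosphoinositide 3-kinase and AKT. IGF2R has no kinase domain, and it carries IGF2 to lysosomes for degradation along with enzymes that bear mannose 6-phosphate. The IGF-binding proteins are secreted carriers that hold IGFs in the extracellular fluid and limit or prolong their access to IGF1R, and the liver is the main source of circulating IGF1 and of several of these carriers.

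The unit of the deposited values is not stated. They follow whole reads once gene length and depth are undone, and they are called FPKM here. Levels of different genes can be compared only as far as the exon length of each gene matches the transcripts expressed. That match was not tested. Reads calculated back from the values numbered 12290127 to 19285957 per sample. Changes are log2 fold changes of FPKM + 1 from limma with Benjamini-Hochberg adjusted p-values over all genes that reached 1 FPKM in 3 or more samples of the comparison. This scale understates the change of genes with low values. Genes are said to have risen or fallen where the adjusted p-value was under 0.05 and the log2 fold change beyond 1. All 9 hepatocyte markers examined, among them ALB, AFP and HNF4A, were at 1 FPKM or more in every sample, whereas defining markers of leukocytes and endothelial cells were low, with sums of no more than 2.91 and 3.66 FPKM over the 4 genes of each list. Of the endothelial markers only PECAM1 reached 1 FPKM in every sample. Among the leukocyte markers CD14 did so in all resistant Huh7 samples and PTPRC in all parental HepG2 samples. Of 5 fibroblast and stellate markers, summed at 2.48 to 26.2 FPKM, only PDGFRB reached 1 FPKM in every sample, and ACTA2 did in every HepG2 sample. Of 4 cholangiocyte markers, summed at 77.7 to 167 FPKM, only KRT19 and SOX9 reached 1 FPKM in every sample. These are bulk values, in which fewer cells expressing a gene cannot be told apart from less RNA per cell.

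The promoters of the 4 genes on which the results turn are shown here so that the start regions of the genes that rose in resistant Huh7 cells can be compared with those of a receptor and a substrate that were lower. Each sequence holds the 250 bases before a transcription start of RefSeq (GRCh38.p14), written 5′ to 3′ on the strand of the gene, with capitals for matches to 6 motifs on either strand. The first is the GC box of many housekeeping promoters, searched as GGGCGG. The TATA box, which places the start of transcription, was searched as TATAAA. The third motif was the CCAAT box, searched by the letters in its name. The element known to be bound by FoxO factors was searched as GTAAACA. A core known from insulin-repressed liver genes, called the insulin response core here, was searched as CAAAACA. The last motif was the E-box, known to be bound by MYC and USF proteins and searched as CACGTG. Neighbouring GC boxes can overlap. IGFBP2 (chr2:216632578-216632827, plus strand) and IGFBP6 (chr12:53097417-53097666, plus strand) encode carriers, IRS2 (chr13:109786584-109786833, minus strand) a substrate and INSR (chr19:7294415-7294664, minus strand) the insulin receptor.
IGFBP2: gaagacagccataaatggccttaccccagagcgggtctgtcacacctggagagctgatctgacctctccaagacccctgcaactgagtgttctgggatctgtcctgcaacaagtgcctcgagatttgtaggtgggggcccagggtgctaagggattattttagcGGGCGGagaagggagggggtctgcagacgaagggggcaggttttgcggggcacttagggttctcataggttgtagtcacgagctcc
IGFBP6: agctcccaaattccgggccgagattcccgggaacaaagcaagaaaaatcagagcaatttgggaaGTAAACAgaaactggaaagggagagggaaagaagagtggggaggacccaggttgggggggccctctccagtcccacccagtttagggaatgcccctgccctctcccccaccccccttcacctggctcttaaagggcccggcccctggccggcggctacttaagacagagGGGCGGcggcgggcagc
IRS2: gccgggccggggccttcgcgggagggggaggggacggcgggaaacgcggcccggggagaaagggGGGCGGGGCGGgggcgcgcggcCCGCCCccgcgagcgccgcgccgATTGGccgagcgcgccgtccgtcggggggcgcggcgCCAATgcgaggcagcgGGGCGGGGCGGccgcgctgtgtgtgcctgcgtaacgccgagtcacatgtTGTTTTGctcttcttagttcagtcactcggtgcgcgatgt
INSR: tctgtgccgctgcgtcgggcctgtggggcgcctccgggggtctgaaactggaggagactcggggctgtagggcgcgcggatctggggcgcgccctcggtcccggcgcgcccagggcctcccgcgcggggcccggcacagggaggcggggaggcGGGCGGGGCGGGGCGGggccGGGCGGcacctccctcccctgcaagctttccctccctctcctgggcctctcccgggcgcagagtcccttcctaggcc

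Windows reaching 50 bases further, to 300 bases in all, were listed for 9 of the 10 members, with IGFBP1 missing, and for 35116 promoters in total. The GC box was found in 45% of all windows and in every first window of the 9 members. The IRS2 window held 5 GC boxes, 2 CCAAT boxes, a sequence found in 34.6% of all windows, and 1 insulin response core, found in 4.92%. The IGFBP6 window held 1 GC box at position -17 and 1 FoxO element at position -186 from the start, the latter found in 3.42% of all windows. The INSR window had 4 GC boxes from position -97 to -77 and none of the other motifs. CpG dinucleotides numbered 50 in the IRS2 window, 36 in that of INSR, 12 in that of IGFBP6 and 8 in the first IGFBP2 window. The median over all windows was 14. The other members had 30 to 55, with 55 in IGF1R, 47 in IRS1, 41 in IGF2R, 36 in IGFBP3 and 30 in IGFBP4. IGFBP2 has 2 further windows at other starts. The nearer, at chr2:216633170-216633469, held 28 CpG dinucleotides and the other 6. The IGFBP2 sequence shown belongs to the first window listed, and which start these cells use was not measured. These matches describe letters in the sequence, and binding was not measured.

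In resistant Huh7 cells the binding proteins IGFBP2 and IGFBP6 rose, while transcripts of the receptors IGF1R and INSR and of the substrate IRS2 were lower than in parental Huh7 cells by less than the fold threshold. Of the 10 members 9 were tested in Huh7, and 2 of them rose and 0 fell, where 22.6% of the 12554 genes tested were called, 8.59% higher and 14% lower. At an adjusted p-value under 0.05 alone, 4 members were higher and 4 lower, where 70.1% of all genes passed, 32.7% higher and 37.4% lower. IGFBP2 and IGFBP6 passed the filter through the resistant samples only and IRS2 through the parental samples only, so these counts are an account of the members and not a result about them. With limma-voom on reads 3 members rose and 1 fell, where 1630 of 12552 genes rose and 2665 fell.

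**Figure D1:**
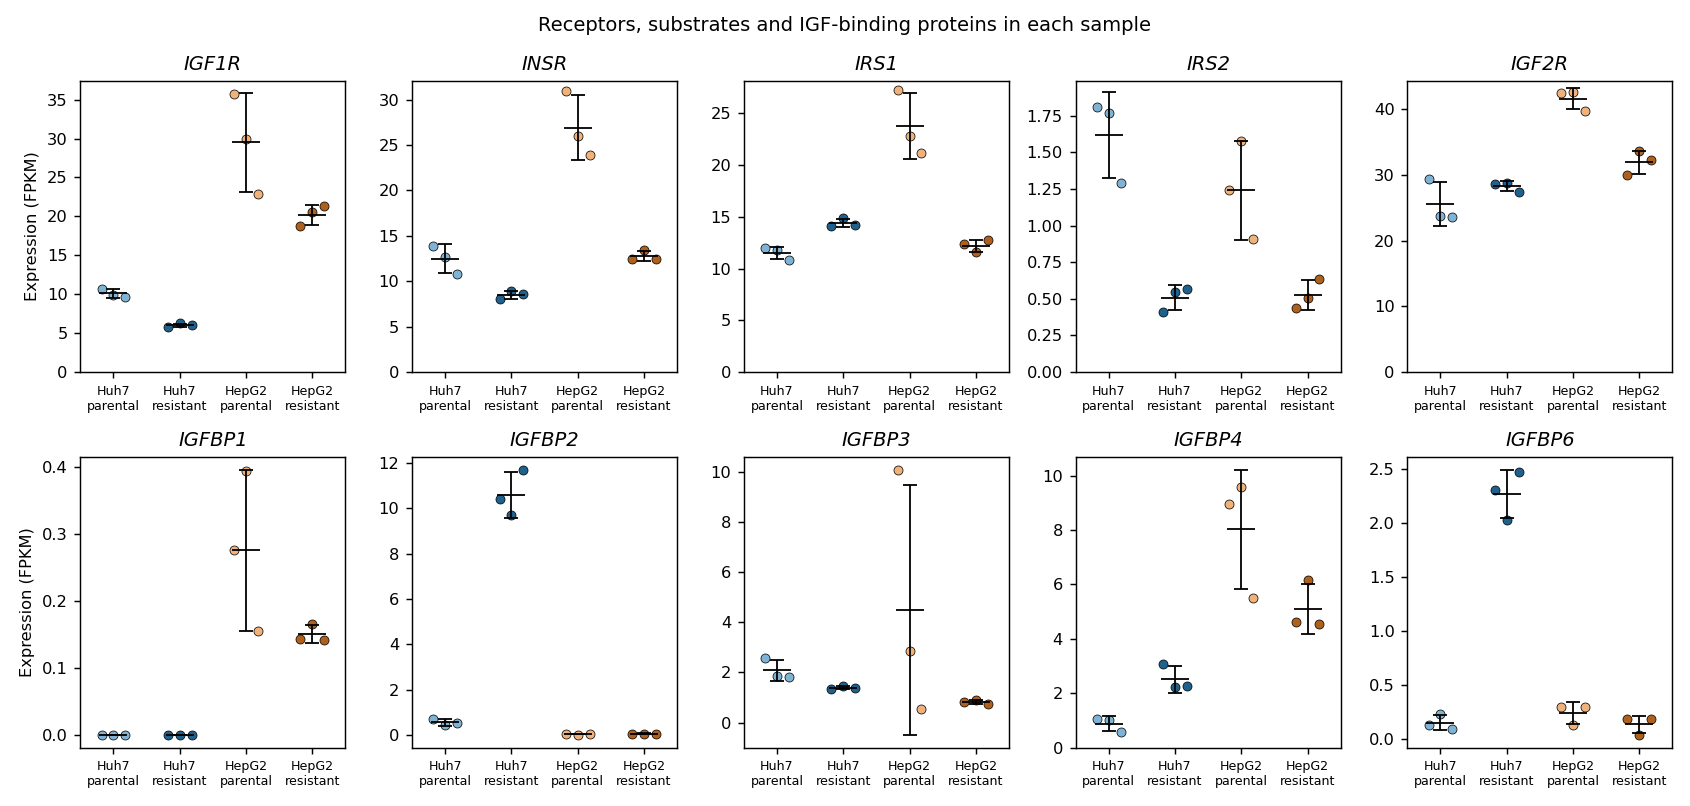
Expression of the 10 members in FPKM (linear axes, 1 panel per gene, each with its own scale) in the 3 samples of each group (points), with the mean (long bar) and SD (whiskers). IGFBP2 and IGFBP6 were high in the resistant Huh7 samples alone, at 9.71 to 11.7 and 2.03 to 2.47 FPKM, whereas INSR and IRS1 were highest in parental HepG2 cells, at 23.9 to 30.9 and 21.2 to 27.3 FPKM.

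IGFBP2, a carrier of IGF1 and IGF2 that is made in liver, stood at 10.4, 9.71 and 11.7 FPKM in the resistant Huh7 samples and at 0.713, 0.436 and 0.506 FPKM in the parental ones. The lowest resistant sample was far above the highest parental sample, and the mean of 10.6 ± 1 FPKM (SD, n = 3) was 19.2-fold that of parental cells (0.552 ± 0.144 FPKM). The log2 fold change was 2.90 ± 0.12 (SE, adjusted p = 4.19e-06), the largest of any member in any comparison made here. In HepG2 the gene was barely detected, with 4 to 5 reads per resistant sample and 1 to 2 reads per parental sample, and it was not tested there. Those reads corresponded to 0.0495 to 0.0609 FPKM in resistant and 0.0171 to 0.0319 FPKM in parental HepG2 cells.

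IGFBP6, a carrier that prefers IGF2 over IGF1, was at 2.31, 2.03 and 2.47 FPKM in resistant Huh7 cells against 0.131, 0.232 and 0.0968 FPKM in parental Huh7 cells. The parental values rest on about 2 to 5 reads per sample and the resistant values on 53 to 63 reads, so the 14.8-fold ratio of the means carries a large counting error. The log2 fold change was 1.50 ± 0.11 (SE, adjusted p = 2.38e-05). In HepG2 the gene was at or below 0.298 FPKM in all 6 samples, with overlapping groups.

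IGFBP4, a carrier known to inhibit IGF action until it is cleaved by the protease PAPPA, was at 3.07, 2.22 and 2.25 FPKM in resistant Huh7 cells and at 1.06, 1.03 and 0.563 FPKM in parental Huh7 cells. The groups did not overlap, and the ratio of means was 2.84-fold. On the scale of the test the difference was 0.90 ± 0.15 (SE, adjusted p = 0.000905), short of the fold threshold, and parental cells gave only 20 to 42 reads per sample. IGFBP3, the main carrier of IGFs in serum, was at 1.34, 1.44 and 1.39 FPKM in resistant Huh7 cells against 2.58, 1.86 and 1.8 FPKM in parental cells. Its change was -0.36 ± 0.13 (SE, adjusted p = 0.0315), and the adjusted p-value ranged from 0.0302 to 0.0994 when samples were left out in turn. IGFBP1, a carrier that insulin represses in liver, had no read in any of the 6 Huh7 samples, which allows up to 3 reads per sample.

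Among the receptors, IGF1R was at 5.84, 6.24 and 6 FPKM in resistant Huh7 cells and at 10.7, 9.91 and 9.59 FPKM in parental Huh7 cells. All resistant samples lay below all parental samples, and the log2 fold change was -0.65 ± 0.10 (SE, adjusted p = 0.000488). INSR was at 8.02, 8.94 and 8.56 FPKM in resistant cells against 13.9, 12.7 and 10.8 FPKM in parental cells. The groups again did not overlap, as was the case for 74.5% of all genes tested in Huh7, and the change was -0.50 ± 0.12 (SE, adjusted p = 0.00508). IGF2R, the clearance receptor, was at 28.6, 28.8 and 27.4 FPKM in resistant and 29.4, 23.8 and 23.6 FPKM in parental cells. Its groups overlapped, and a difference was not detected (0.15 ± 0.11, SE, adjusted p = 0.279).

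IRS1 was at 14.1, 14.9 and 14.2 FPKM in resistant cells and at 12, 11.8 and 10.8 FPKM in parental cells, a difference of 0.30 ± 0.10 (SE, adjusted p = 0.0222) without overlap. The adjusted p-value of IRS1 ranged from 0.0272 to 0.0879 when samples were left out in turn, and the difference was 0.02 with the GC trend of each sample taken off. IRS2 was at 0.408, 0.548 and 0.569 FPKM in resistant cells and at 1.81, 1.77 and 1.29 FPKM in parental cells. Its parental mean was 3.19-fold the resistant mean, and the log2 fold change on the FPKM + 1 scale was -0.79 ± 0.12 (SE, adjusted p = 0.000544). With a pseudocount of 0.1 the IRS2 change was -1.50 and the IGFBP4 change 1.44, both then past the fold threshold.

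**Figure D2:**
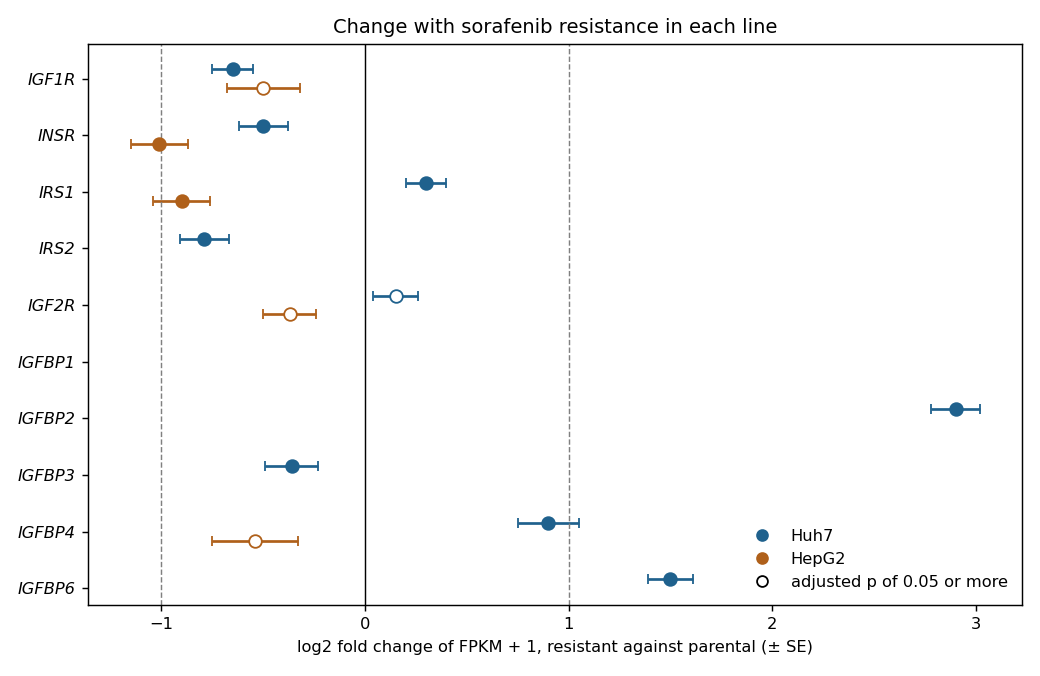
Log2 fold change of FPKM + 1 (x axis) of resistant against parental cells for the members tested in Huh7 (blue) and in HepG2 (brown), with bars for the SE. Open points mark an adjusted p-value of 0.05 or more and dashed lines the fold threshold of 1. The Huh7 points run from -0.79 for IRS2 to 2.90 for IGFBP2, whereas all 5 HepG2 points lie below 0.

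Fold changes in Huh7 moved with the GC content of the genes, with a Spearman correlation of 0.62 over 12545 genes that share the same 6 libraries, against 0.04 over 11756 genes in HepG2. All members tested in Huh7 have exons with a GC content above the median of 46.7%, from 49% in INSR to 64.1% in IGFBP6. After the GC trend of each sample was taken off, IGFBP2 and IGFBP6 still rose, with changes of 2.38 (adjusted p = 5.18e-06) and 1.02 (adjusted p = 0.000459). The change of IGFBP4 dropped to 0.40 (adjusted p = 0.0331) and that of IRS1 to 0.02 (adjusted p = 0.796). Decreases became larger, with IGF1R at -0.99, INSR at -0.66 and IRS2, which is also GC-rich, at -1.33, past the fold threshold. IGF2R changed sign to -0.05 (adjusted p = 0.562). The part of GC content in these results was not tested further.

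**Figure D3:**
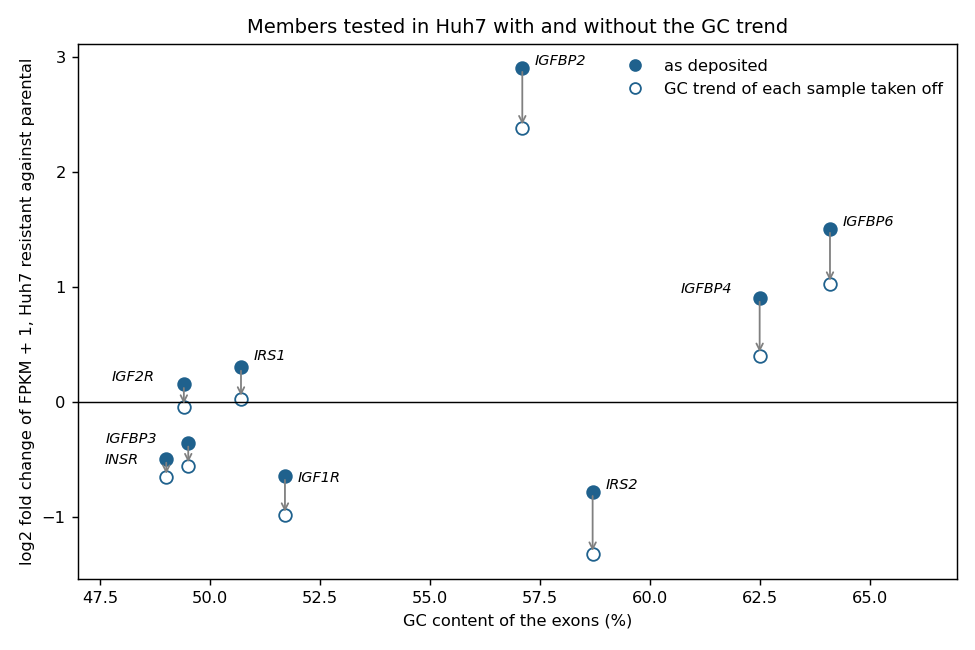
Log2 fold change of FPKM + 1 in Huh7, resistant against parental (y axis), against the GC content of the exons in percent (x axis) for the 9 members tested. Filled points show the values as deposited, and arrows lead to open points with the GC trend of each sample taken off. All 9 arrows point down, by which IRS1 comes to 0.02 while IGFBP2 stays at 2.38.

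In resistant HepG2 cells the insulin receptor fell and its substrate IRS1 was lower than in parental HepG2 cells, and no member rose. Only 5 members were tested in HepG2, since IRS2, IGFBP1, IGFBP2, IGFBP3 and IGFBP6 did not reach the filter, and 1 fell and 0 rose. Of the 11762 genes tested 6.27% were called, 3.29% higher and 2.98% lower. An adjusted p-value under 0.05 was met by 20% of them, 8.43% lower, among which were 2 members, INSR and IRS1. At an unadjusted p-value under 0.05 limma gave 5 members lower and 0 higher, and the share of all genes at that threshold was not counted. Limma-voom called 1 member lower and 0 higher, where it called 511 of 11760 genes lower and 646 higher. INSR was at 12.5, 13.4 and 12.5 FPKM in resistant HepG2 cells and at 30.9, 26 and 23.9 FPKM in parental HepG2 cells. The groups were far apart, with a 2.1-fold higher mean in parental cells (26.9 ± 3.58 against 12.8 ± 0.539 FPKM, SD, n = 3), and the log2 fold change was -1.01 ± 0.14 (SE, adjusted p = 0.0028). The value lies at the fold threshold, and when samples were left out in turn it ranged from -1.09 to -0.91 and passed the threshold in 3 of 6 fits, missing it without resistant sample 1 or 3 or parental sample 1, while the adjusted p-value did not exceed 0.0206.

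IRS1 was at 12.4, 11.6 and 12.8 FPKM in resistant HepG2 cells and at 27.3, 22.8 and 21.2 FPKM in parental cells, again without overlap. Its change was -0.90 ± 0.14 (SE, adjusted p = 0.00476), and median-ratio scaling, which moves the median change of all genes in HepG2 from 0.12 to 0.03, brought it just past the fold threshold (adjusted p = 0.00324). IGF1R was at 18.8, 20.5 and 21.3 FPKM in resistant and 35.7, 30 and 22.9 FPKM in parental cells. Here the parental samples were widely spread, and the change of -0.50 ± 0.18 (SE) had an adjusted p-value of 0.0766, which became 0.0498 under median-ratio scaling and 0.0325 with the GC trend taken off. IGF2R was at 30, 33.6 and 32.2 FPKM in resistant and 42.5, 42.6 and 39.7 FPKM in parental cells. These groups did not overlap, as for 40.4% of all genes tested in HepG2, and the change of -0.37 ± 0.13 (SE) had an adjusted p-value of 0.0695, or 0.0333 under median-ratio scaling. With the GC trend taken off the IGF2R change was -0.43 (adjusted p = 0.0085).

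The binding proteins of HepG2 were less even between samples. IGFBP4 was at 4.62, 6.17 and 4.54 FPKM in resistant and 8.97, 9.58 and 5.52 FPKM in parental cells, with overlap and a change of -0.54 ± 0.21 (SE, adjusted p = 0.106). With the GC trend taken off the IGFBP4 change was -0.77 (adjusted p = 0.0261). IGFBP3 was at 0.801, 0.886 and 0.725 FPKM in resistant cells and at 10.1, 2.87 and 0.542 FPKM in parental cells. The parental samples thus ranged from 39 to 606 reads, the lowest lay below all resistant samples, and the gene did not pass the filter (two-sided exact permutation p = 0.4). IRS2, also below the filter, was at 0.435, 0.504 and 0.635 FPKM in resistant and 1.24, 1.58 and 0.906 FPKM in parental cells. The IRS2 groups did not overlap, and the exact permutation p-value of 0.1 is the smallest that 3 samples against 3 can give. IGFBP1, with no read in Huh7, had 4 to 5 reads per sample in resistant and 4 to 8 in parental HepG2 cells.

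Parental Huh7 and parental HepG2 cells differed in the level of most receptors and substrates before resistance was considered. Of the 7 members tested, 3 were called, all lower in Huh7, and 5 had an adjusted p-value under 0.05. Of 12796 genes 31.9% were called, 19.4% higher and 12.5% lower in Huh7, and 65.2% had an adjusted p-value under 0.05. With limma-voom 4 members were called, all lower in Huh7, where 3237 of 12794 genes were called higher and 2013 lower. The parental groups of IGF1R, INSR, IRS1, IGF2R and IGFBP4 did not overlap, as was the case for 70% of all genes tested. IGFBP4 was 9.07-fold higher in parental HepG2 by the means, a log2 difference of -2.24 ± 0.21 (SE, adjusted p = 4.01e-05). IGF1R was 2.93-fold and INSR 2.16-fold higher in HepG2, with log2 differences of -1.44 ± 0.17 (adjusted p = 0.00014) and -1.05 ± 0.15 (adjusted p = 0.000416). The INSR difference passed the fold threshold in 4 of 6 fits with a sample left out, and the value was -0.96 without parental Huh7 sample 3 and -0.95 without parental HepG2 sample 1. IRS1 (-0.98 ± 0.14, adjusted p = 0.000365) and IGF2R (-0.69 ± 0.13, adjusted p = 0.00227) were also lower in Huh7, short of the fold threshold. IRS2 (0.23 ± 0.15, adjusted p = 0.214) and IGFBP3 (-0.40 ± 0.59, adjusted p = 0.574) did not pass the test, and IRS2 was at 0.42 (adjusted p = 0.0178) with the GC trend taken off. The IGFBP3 value turned to 0.33 without parental HepG2 sample 1 and to -1.10 (adjusted p = 0.0481) without parental HepG2 sample 3. IGFBP2, untested here because it was below 1 FPKM in both, gave 35 to 61 reads per sample in parental Huh7 and 1 to 2 in parental HepG2.

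The order of levels over the 4 groups differed between the members. IGF1R was highest in parental HepG2, then resistant HepG2, parental Huh7 and resistant Huh7, with no overlap between neighbours. INSR had the same order, but resistant HepG2 (12.8 FPKM) and parental Huh7 (12.5 FPKM) overlapped. For IRS1 parental HepG2 (23.8 FPKM) stood above resistant Huh7 (14.4 FPKM), and resistant HepG2 (12.2 FPKM) and parental Huh7 (11.5 FPKM) overlapped at the bottom. IRS2 formed a high pair of parental groups and a low pair of resistant groups, each pair overlapping within itself. IGF2R was highest in parental HepG2 (41.6 FPKM), and the Huh7 groups at the bottom overlapped. IGFBP2 descended without overlap from resistant Huh7 through parental Huh7 and resistant HepG2 to parental HepG2. Its order within HepG2 rests on 4 to 5 reads per resistant and 1 to 2 reads per parental sample, and was not tested. IGFBP6 stood apart in resistant Huh7 only. Of all genes tested, 74.5% had no overlap with resistance in Huh7, 40.4% in HepG2, and 70% between the parental lines.

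Whether resistance went with a different change in the 2 lines was tested as an interaction in a fit of all 12 samples. The value is the signed log2 fold change in Huh7 minus that in HepG2, so a positive value can also come from a smaller decrease in Huh7. Of the 9 members tested 4 were called higher and 0 lower, where 28.8% of 13800 genes were called, 10.6% higher and 18.2% lower. At an adjusted p-value under 0.05 alone 6 members were higher and 0 lower, where 56.3% of all genes passed, 23.1% higher and 33.2% lower. The counts were the same 6 and 0 at an unadjusted p-value under 0.05, for which the share of all genes was not counted. With limma-voom 4 members were called higher and 0 lower, where 1941 of 13798 genes were called higher and 3186 lower. IGFBP2 and IGFBP6 passed this filter through resistant Huh7 cells only. The difference was 2.86 ± 0.14 for IGFBP2 (SE, adjusted p = 1.97e-07) and 1.63 ± 0.14 for IGFBP6 (adjusted p = 7.37e-06), with no more than 6 reads of either gene per HepG2 sample. It was 1.44 ± 0.28 for IGFBP4 (adjusted p = 0.00122), which was higher in resistant Huh7 and had a negative value in HepG2. For IRS1, with values of 0.30 in Huh7 and -0.90 in HepG2, the difference was 1.19 ± 0.15 (adjusted p = 6.91e-05), or 1.04 (adjusted p = 0.000131) with the GC trend taken off. INSR (0.51 ± 0.17, adjusted p = 0.0211) and IGF2R (0.52 ± 0.14, adjusted p = 0.00941) differed by less than the fold threshold. IGF1R (-0.15 ± 0.19, adjusted p = 0.528), IRS2 (-0.24 ± 0.18, adjusted p = 0.266) and IGFBP3 (0.81 ± 0.71, adjusted p = 0.35) did not pass the test. With the GC trend taken off the IRS2 difference was -0.60 (adjusted p = 0.0142). Without parental HepG2 sample 3 the IGFBP3 difference was 1.50 (adjusted p = 0.0146).

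The median log2 difference of all genes was 0.19 between parental lines and -0.15 in the interaction, and median-ratio scaling brought these to 0.02 and -0.01. The split of called genes moved with it, from 2482 higher and 1599 lower to 2037 and 2016 between the parental lines, and from 1459 higher and 2517 lower to 1912 and 1982 in the interaction. In HepG2 it moved from 387 higher and 350 lower to 290 and 429. Under this scaling the interaction was 1.39 for IRS1, 0.71 for INSR and 0.72 for IGF2R, and that of IGF1R changed sign to 0.04 (adjusted p = 0.861).

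Ratios within a sample do not depend on the scaling between samples, but their size depends on the gene lengths used. IGF1R to INSR was 0.71 ± 0.0167 (SD, n = 3) in resistant Huh7 and 0.813 ± 0.0656 in parental Huh7 cells. INSR thus had the higher FPKM of the 2 receptors in both. In HepG2 the ratio was 1.58 ± 0.112 in resistant and 1.09 ± 0.112 in parental cells. The ratio was thus lower in resistant Huh7 and higher in resistant HepG2 than in the parental cells, and the groups overlapped in neither line (exact permutation p = 0.1 each, two-sided, the smallest possible). IGF2R to IGF1R stood at 4.69 ± 0.175 in resistant Huh7 against 2.53 ± 0.183 in parental Huh7, again without overlap (exact permutation p = 0.1), whereas the HepG2 ratios of 1.58 ± 0.064 and 1.45 ± 0.271 overlapped (exact permutation p = 0.6). IRS2 to IRS1 stood at 0.0353 ± 0.00562 in resistant Huh7 against 0.14 ± 0.0184 in parental Huh7 (exact permutation p = 0.1). In HepG2 it was 0.0428 ± 0.00728 and 0.0525 ± 0.0147, with overlap (exact permutation p = 0.5). IRS1 was the main substrate transcript in all 12 samples, and the IRS2 share was largest in parental Huh7.

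**Figure D4:**
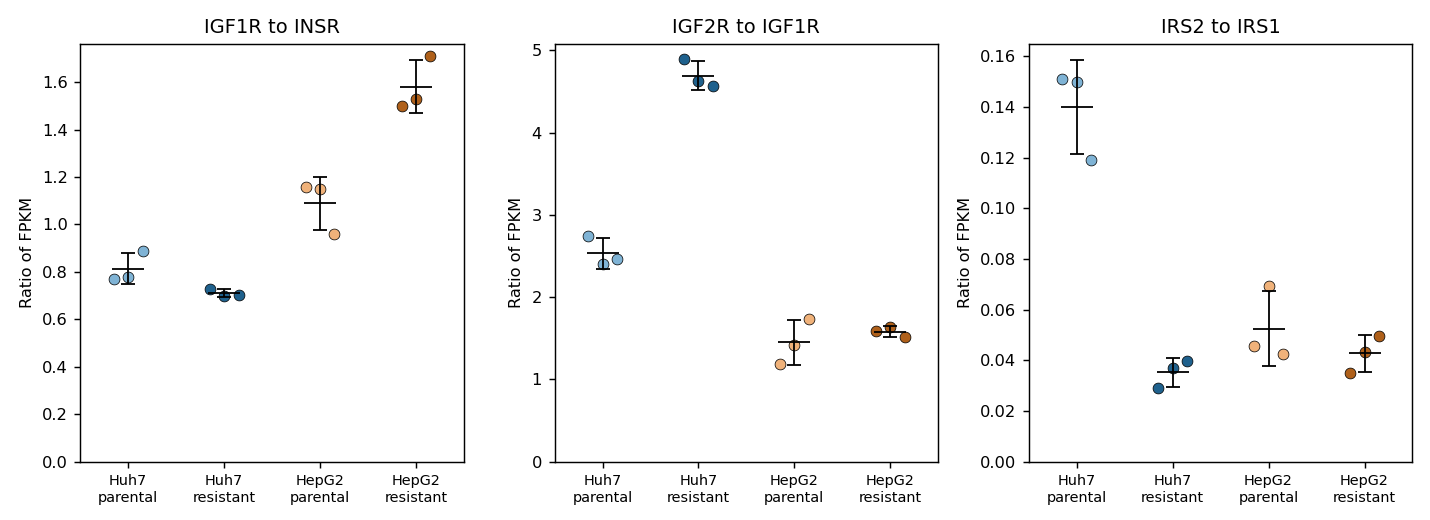
Ratios of FPKM within each sample (points) for IGF1R to INSR, IGF2R to IGF1R and IRS2 to IRS1, by group, with the mean (long bar) and SD (whiskers) on linear axes that start at 0. IGF1R to INSR lies below 1 in all Huh7 samples and between 1.5 and 1.71 in resistant HepG2, and IRS2 to IRS1 is highest in parental Huh7, at 0.119 to 0.151.

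The make-up of the binding protein transcripts differed between the groups. The 5 members together were at 17.1, 15.4 and 17.8 FPKM in resistant Huh7 cells against 4.49, 3.55 and 2.97 FPKM in parental Huh7 cells (exact permutation p = 0.1). IGFBP2 made up 63.2 ± 2.45% of this sum in resistant and 15.1 ± 2.49% in parental Huh7 cells, whereas IGFBP3 made up 8.33 ± 0.887% and 56.8 ± 4.24%. By FPKM the leading carrier of Huh7 was thus IGFBP3 in parental and IGFBP2 in resistant cells. In HepG2 the sum was 5.79, 7.32 and 5.65 FPKM in resistant cells and 19.7, 13 and 6.54 FPKM in parental cells, with overlap (exact permutation p = 0.2). IGFBP4 led in resistant HepG2 with 81.4 ± 2.47%, and in parental HepG2 its share was 67.9 ± 20.1%, where IGFBP3 took 51.3% in sample 1, 22.1% in sample 2 and 8.29% in sample 3.

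**Figure D5:**
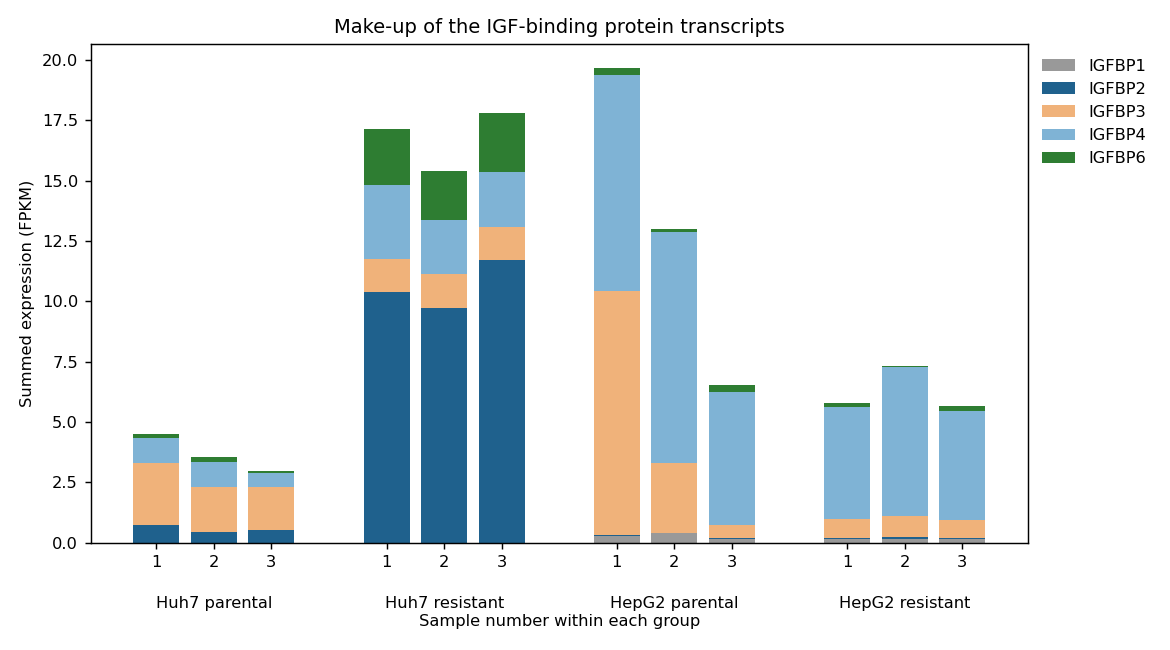
Summed FPKM of the 5 binding protein members in each of the 12 samples (stacked bars from 0, 1 colour per gene), by group. IGFBP2 fills most of each bar of the resistant Huh7 samples, whose sums are 15.4 to 17.8 FPKM, whereas IGFBP4 fills most of each resistant HepG2 bar and the parental HepG2 bars range from 6.54 to 19.7 FPKM.

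IGFBP2 and IGFBP5 lie end to end on chromosome 2 (IGFBP2 at 216632828 to 216664436, plus strand; IGFBP5 at 216672105 to 216695525, minus strand, GRCh38), with a gap of 7.67 kb. IGFBP5 did not reach the filter, but it stood at 0.614, 0.612 and 0.914 FPKM in resistant Huh7 cells against 0.0865, 0.0829 and 0.0769 FPKM in parental Huh7 cells. The corresponding reads were 75 to 112 and 8 to 10 per sample. Both neighbours were thus higher in every resistant Huh7 sample than in any parental one. Groups likewise did not overlap for 74.5% of all genes tested in Huh7. In HepG2 IGFBP5 gave 0 to 6 reads per sample. IGFBP1 and IGFBP3 are 18.6 kb apart on chromosome 7 (IGFBP1 at 45888357 to 45893668, plus strand; IGFBP3 at 45912245 to 45921874, minus strand). Those neighbours were not alike in Huh7, where IGFBP1 had no read and IGFBP3 116 to 212 reads per sample.

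Over the 12 samples, the genes whose log2 values followed IGFBP2 most closely were TUBB4A (Pearson r = 0.999), MAP7 (0.998) and FUT3 (0.998). TUBB4A, a beta-tubulin, had means of 9.41 and 0.532 FPKM in resistant and parental Huh7 cells and FUT3, a fucosyltransferase, 15.8 and 0.858 FPKM. INSR was most closely followed by MARF1 (0.983), RALGAPA2 (0.982) and UNC93A (0.978). These correlations describe 12 samples that form 4 groups of 3 and share their libraries, and the genes were selected for their likeness.

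Other genes of the system were counted in 10 lists with 55 genes in the tables. In Huh7 34 of these were tested, of which 4 rose and 7 fell, where 8.59% and 14% of all genes did. In HepG2 0 of 34 rose and 4 fell, where 3.29% and 2.98% of all genes did. At an unadjusted p-value under 0.05 limma gave 5 higher and 10 lower, and the share of all genes at that threshold was not counted. With limma-voom 0 rose and 5 fell, where 646 and 511 of 11760 genes did. Of the 3 ligands, IGF2 was tested. It was at 5.37 to 6.44 FPKM in resistant and 5.89 to 7.16 FPKM in parental Huh7 cells (change -0.09 ± 0.12, adjusted p = 0.526), and at 30.9 to 41.9 and 23.9 to 49.2 FPKM in the HepG2 groups (0.15 ± 0.25, adjusted p = 0.697). With the GC trend taken off the IGF2 change was -0.62 in Huh7 (adjusted p = 0.000178), short of the fold threshold, and -0.02 in HepG2 (adjusted p = 0.962). Parental Huh7 had less IGF2 than parental HepG2, by -2.20 ± 0.24 (SE, adjusted p = 8.88e-05). Another identifier with the symbol IGF2 overlaps this gene, and how reads of overlapping or antisense transcripts were divided is not stated, so these values are uncertain. IGF1 was below 1 FPKM throughout, with 9 to 14 reads per sample in resistant and 44 to 99 in parental Huh7 cells and no more than 9 in HepG2, and INS gave 1 read in 1 of 12 samples.

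Among genes that act on the carriers, STC2, whose product inhibits the protease PAPPA, rose in Huh7 from 5.42, 5.83 and 4.15 to 14.9, 17.2 and 16.3 FPKM (1.49 ± 0.13, adjusted p = 4.88e-05). In HepG2 it was lower with resistance, at 19.5 to 22.8 against 31.9 to 37.9 FPKM (-0.72 ± 0.14, adjusted p = 0.00989), and the difference between the lines was 2.21 ± 0.18 (adjusted p = 4.29e-06). It was the only gene of its 5-gene list that was tested in either line. Of 4 further binding proteins and partners, IGFBP5, IGFBP7, IGFALS and IGFBPL1, none passed the filter in either line.

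Of 6 adaptors tested in each line, GAB1 fell in Huh7, from a mean of 15 to 5.05 FPKM (-1.41 ± 0.12, adjusted p = 4.49e-05), and in HepG2 0 were called, with 1 higher and 1 lower at an unadjusted p-value under 0.05 and 1 lower call, GRB10, with limma-voom. Of 5 negative regulators tested, CEACAM1, which promotes insulin clearance in hepatocytes, rose in Huh7 from 3.74 to 16.2 FPKM (1.86 ± 0.10, adjusted p = 6.88e-06) and did not pass the test in HepG2 (0.14 ± 0.13, adjusted p = 0.484). Of all genes tested, 8.59% rose and 14% fell in Huh7, and 2.98% fell in HepG2. Of 9 genes tested in the first steps to AKT and FoxO, 3 fell in Huh7. Among them were PIK3R1 (-1.23 ± 0.12, adjusted p = 7.68e-05) and PIK3CA (-1.23 ± 0.16, adjusted p = 0.00027), subunits of phosphoinositide 3-kinase. With the GC trend taken off the changes of these 2 genes were -0.62 and -0.27 and that of GAB1 was -0.64, all short of the fold threshold, whereas CEACAM1 stayed at 1.83 and STC2 at 1.15. In HepG2 1 gene of this list fell, the transcription factor FOXO3, from 19.2 to 5.49 FPKM (-1.62 ± 0.16, adjusted p = 0.000709), which had a change of -0.40 ± 0.13 in Huh7 (adjusted p = 0.0246).

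The list of insulin- and FoxO-regulated liver genes held 3 tested genes in Huh7, of which 2 rose, and 5 in HepG2, of which 3 fell. Among all genes tested, 8.59% rose in Huh7 and 2.98% fell in HepG2. TXNIP, a thioredoxin inhibitor that limits glucose uptake, was at 14.6, 18.8 and 15.6 FPKM in resistant against 2.51, 2.88 and 2.27 FPKM in parental Huh7 cells (2.28 ± 0.13, adjusted p = 7.56e-06). In HepG2 it was at 40.7, 36.2 and 41.8 FPKM in resistant against 181, 180 and 131 FPKM in parental cells (-2.01 ± 0.17, adjusted p = 0.000388). It thus rose in the line where it was low and fell in the line where it was high. TRIB3, a pseudokinase that binds AKT, rose in Huh7 (1.00 ± 0.16, adjusted p = 0.00073) and fell in HepG2 (-1.30 ± 0.24, adjusted p = 0.00881), but its Huh7 call held in 3 of 6 fits with a sample left out and was 0.47 with the GC trend taken off. PPARGC1A, a coactivator of gluconeogenic genes, fell in HepG2 (-1.08 ± 0.21, adjusted p = 0.0111), in 4 of 6 such fits, with -0.96 without resistant sample 2 and -0.88 without parental sample 1. In Huh7 PPARGC1A did not reach the filter and was not tested. It was at 0.0774 to 0.116 FPKM in resistant Huh7 cells (16 to 24 reads) and at 0.723 to 0.923 FPKM in parental Huh7 cells (141 to 169 reads).

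In the growth hormone list all 5 genes were tested in Huh7, and 3 fell, where 14% of all genes tested did. PRLR, the prolactin receptor, fell from a mean of 24.2 to 5.63 FPKM (-1.93 ± 0.15, adjusted p = 2.87e-05) and GHR, the growth hormone receptor that drives hepatic IGF1, from 4.16 to 0.599 FPKM (-1.69 ± 0.12, adjusted p = 2.26e-05). JAK2, the kinase used by both, fell from 3.09 to 0.727 FPKM (-1.24 ± 0.12, adjusted p = 6.04e-05). GHR and JAK2 passed the filter through parental samples only. With the GC trend taken off, GHR was at -1.08 and PRLR at -1.17, and JAK2 at -0.54, short of the fold threshold. In HepG2 3 genes of this list were tested and 0 were called, where an unadjusted p-value under 0.05 was met by 1 lower gene and limma-voom made 0 calls. Of the 3 IGF2 mRNA-binding proteins limma and limma-voom called 0 in both lines, while an unadjusted p-value under 0.05 was met by 1 higher and 2 lower genes in Huh7 and by 0 in HepG2. M6PR, the smaller mannose 6-phosphate receptor and the only gene tested of its list of 3, was not called in either line. Its change was 0.59 ± 0.12 in Huh7 (SE, adjusted p = 0.0019), short of the fold threshold, and 0.43 ± 0.14 in HepG2 (adjusted p = 0.0601).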

How the data were processed

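Total RNA of 12 samples was sequenced, with condition and replicate number taken from the labels. The authors had deposited 1 table per sample with an FPKM-like value per gene. The labels name bcl2fastq and GRCh38, and the aligner, the counter and the annotation are not given in the sources used here. In 6894 genes with a single exon at least 99.5% of values per sample fell within 0.05 of a whole number of reads, with exon lengths of GENCODE 29. For genes with several exons this held for 94.7% of values up to 50 reads, so reads are approximate. Floors and reads cover counting error only, since the reads carry no molecular identifiers. The 71462 NONCODE genes were not analysed.

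Values were fitted as log2(FPKM + 1) with limma 3.58.1 in R 4.3.3 (empirical Bayes, trend on mean expression, two-sided), with 6 samples per comparison and 12 for the interaction. Genes that reached 1 FPKM in 3 or more samples were tested. Single values were compared with exact permutation tests in scipy 1.17.1. For counts at an unadjusted p-value under 0.05 the share of all genes was not counted. The members, the lists and the tests were chosen with earlier results of these data known. All members are named, as are genes of the lists that were called in a line (up to 4 per list, of which 1 is not reported here), and the 3 genes most like the member with the largest change in each line. IGF2 was described in addition as the tested ligand. Alternatives were another pseudocount, no filter, median-ratio and upper-quartile scaling, no variance trend, limma-voom on reads calculated back, removal of a lowess GC trend (span 0.3) of each sample, a replicate block, all samples in 1 fit and leaving out each sample.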

Additional observations from a re-analysis of the deposited data

Results flagged for a closer look

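For 6 members the change with resistance differed between Huh7 and HepG2 by the interaction test at an adjusted p-value under 0.05 (limma, 12 samples), where 56.3% of all genes tested did so. The difference of log2 fold changes, Huh7 minus HepG2, was 2.86 for IGFBP2, 1.63 for IGFBP6, 1.44 for IGFBP4, 1.19 for IRS1, 0.52 for IGF2R and 0.51 for INSR. For IRS1 the change was 0.30 in Huh7, or 0.02 with the GC trend taken off (adjusted p = 0.796), and -0.90 in HepG2. Its groups did not overlap in either line, as for 74.5% of all genes tested in Huh7 and 40.4% in HepG2. For INSR the resistant samples were lower in both lines, and the adjusted p-value reached 0.0538 when a sample was left out. The values of IGFBP2 and IGFBP6 rest on resistant Huh7 cells, since HepG2 gave no more than 6 reads of either gene per sample.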

How the results depend on the processing

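In Huh7 2838 genes and 2 members were called, against 4295 genes and 4 members with limma-voom on reads calculated back, 4 members with a pseudocount of 0.1 and 1490 genes with the GC trend taken off. In HepG2 737 genes and 1 member were called, against 1157 genes with limma-voom and 2 members with median-ratio scaling. Leaving out samples in turn gave 0 to 2 members and 2133 to 3006 genes in Huh7, 0 to 1 members and 590 to 804 genes in HepG2, 2 to 5 members and 2909 to 3880 genes between the parental lines, and 2 to 5 members and 3455 to 4288 genes in the interaction. The Huh7 count of 0 and the interaction count of 2 arise without any 1 of the resistant Huh7 samples, where IGFBP2 and IGFBP6 no longer reach the filter. Without parental HepG2 sample 3 the count between the parental lines was 5.

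Changes of sign were -0.05 for IGF2R in Huh7 with the GC trend taken off, 0.33 for IGFBP3 between the parental lines without parental HepG2 sample 1 (range over samples left out -1.10 to 0.33), and 0.04 with median-ratio scaling and 0.01 without parental HepG2 sample 3 (range -0.29 to 0.01) for IGF1R in the interaction. The cause of these moves was not tested. Of 746 values of single genes, ratios and sums under the alternatives, 711 kept direction and side of the threshold, 16 dropped below it and 15 passed it. A value called under neither setting counts as kept however far it moved, as for IRS1 in Huh7 with the GC trend taken off (0.02). Settings that change only the variance, such as no variance trend, leave the fold change as it was. The tally therefore does not measure how stable the values are.

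Deviations of same-numbered samples correlated at -0.2 to 0.07 in Huh7 and -0.18 to 0.17 between the parental lines. In HepG2 they correlated at 0.22, 0.39 and -0.01, so that not every pair deviated together, and the numbers were not taken to pair the samples. A replicate block gave 2841 genes in Huh7, 779 in HepG2, 4097 between the parental lines and 3993 in the interaction, with 2, 1, 3 and 4 members. At an adjusted p-value under 0.05 alone the block moved the HepG2 counts from 1366 higher and 991 lower to 2111 and 1307, and brought IGF2R (0.0461) and IGFBP4 (0.0424) under 0.05 there, while IGFBP3 in Huh7 came to 0.0509. Depth limits IGFBP1, IGFBP2 and IGFBP6 in HepG2, each with 8 reads per sample or fewer.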
